A study of Mus musculus with 8 samples.

Results

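The sarcomeric myosin heavy chains are the motor proteins of the thick filament in striated muscle. The 9 genes examined, Myh3, Myh8, Myh7, Myh6, Myh7b, Myh2, Myh1, Myh4 and Myh13, were chosen by name, and their probes were found through the RefSeq transcript that each array probe is assigned to. These 9 genes, of 22911 gene symbols on the array, were represented by 14 probes. Skeletal muscle RNA was taken from 3 Grsf1cKO and 3 WT male mice aged 17 months and hybridized to Agilent 1-color arrays. Grsf1cKO 1 and WT 1 were each hybridized again, which gave 8 arrays of 6 mice. Grsf1 encodes an RNA-binding protein of mitochondria. The Grsf1cKO mice descend from the Grsf1tm1a allele, whose LacZ and Neo cassettes were removed with FLPo, leaving floxed exons that Myf5Cre deleted. Cre expressed from Myf5 acts in muscle progenitors from the embryo onward and also in some other lineages. Grsf1 was measured here at 17 months only. Whether the WT mice carried Cre or a floxed allele is not given in the sources used here. The labels name the muscle as vastus intermedius and the methods as rectus femoris, both parts of the quadriceps.

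Each myosin heavy chain gene gives fibers a characteristic speed. In the limb muscles of adult mice, Myh4, Myh1 and Myh2 encode the fast chains, from the fastest to the slowest, and Myh7 encodes the slow chain. Myh3 and Myh8 are the embryonic and the neonatal chain, which are used during development and return for a time in fibers that regenerate after injury.

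The tissue and the genotype were checked first. All 10 skeletal muscle identity genes, among them Acta1, Ckm and Ryr1, were well above background on all 8 arrays, as were the 13 fast and the 12 slow fiber genes. Of 6 cardiac markers, 3 were well above background on every array. The log2 signal of Grsf1 was 12.15, 12.02 and 12.08 in Grsf1cKO mice 1 to 3 and 14.30, 14.25 and 14.27 in WT mice 1 to 3, a log2 fold change of -2.19 (SE 0.0811, limma adjusted p = 0.00328) that was lower in 3 of 3 mice. Whether this probe lies within the deleted exons is not given in the sources used here.

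A mouse and an array stood apart from the rest. Grsf1cKO 3 exceeded every other mouse by over 1 on the log2 scale at 247 of the 38859 probes with a value in all mice (0.636%), against 23 to 128 probes for each of the other mice. The repeat array of Grsf1cKO 1 had 88.9% of its spots well above background, against 66.3% to 73.1% on the other arrays. For the main results, values without Grsf1cKO 3 or with first arrays only are given as well.

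None of the myosin heavy chains passed the criteria for a difference between the genotypes, which asked for a false discovery rate under 0.2 together with p under 0.01 before adjustment and a more than 1.5-fold difference. All 14 probes were tested with limma, 0 passed, and 1 had an unadjusted p under 0.05. Of all 38888 probes tested, 3 passed the criteria (0.00771%), 1 of them higher in Grsf1cKO (0.00257%) and 2 lower (0.00514%), and 1653 (4.25%) had an unadjusted p under 0.05. A z-test put 1 of the 14 probes past the same thresholds and 3 under 0.05, where 4212 of all 38888 probes were under 0.05 (98 higher and 281 lower past the thresholds). Its formula was written here, since the methods give none, and the methods' further criteria on z-ratio, variance and mean score were not applied. The mice of both genotypes did not overlap at 3 of the 14 probes, against 9.35% of all probes, and these were the dimmer probe of Myh3 and the brighter probes of Myh2 and Myh4. With only the first array of each mouse this count was 1. The fold change was above 0 for 6 probes and below 0 for 8. The exact permutation test over 3 mice against 3 cannot go below p = 0.1 (2-sided).

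**Figure D1:**
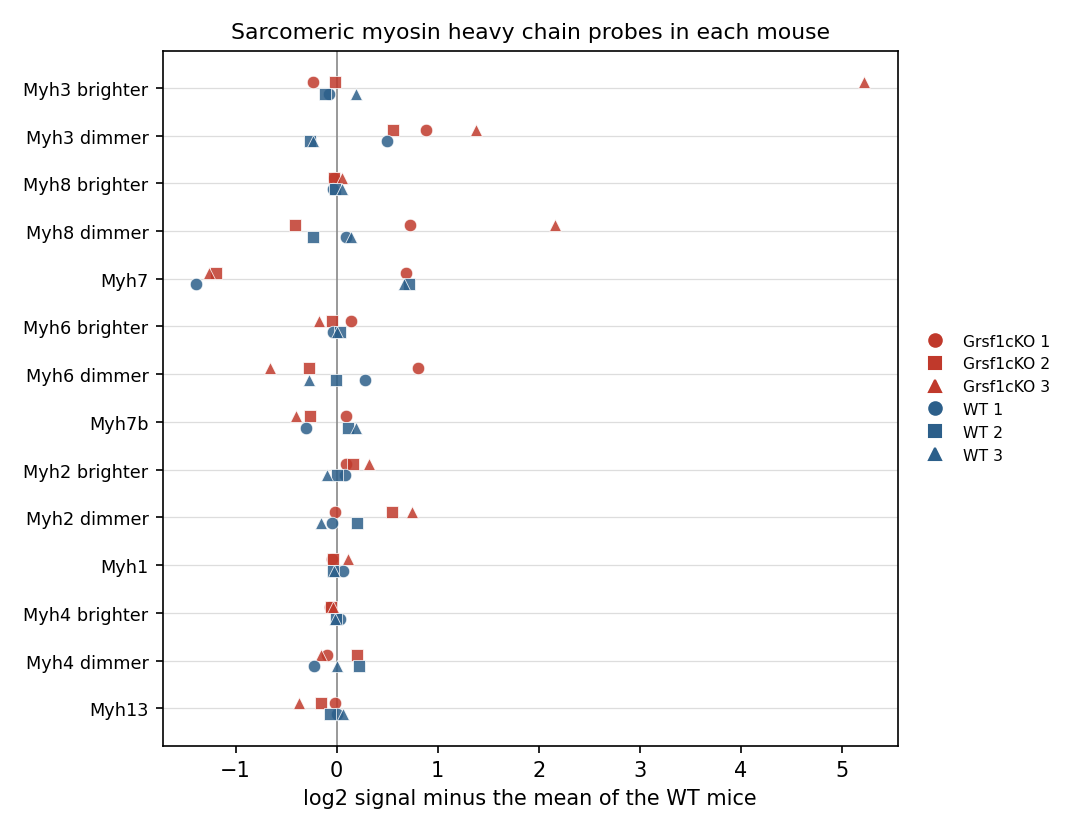
Log2 signal of the 14 myosin heavy chain probes in each of the 6 mice (horizontal axis, difference from the mean of the WT mice), with color for the genotype and the marker's shape for the mouse number. Grsf1cKO 3 lies alone at the brighter Myh3 probe, and at Myh7 the mice lie at separate levels that both genotypes share.

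**Figure D2:**
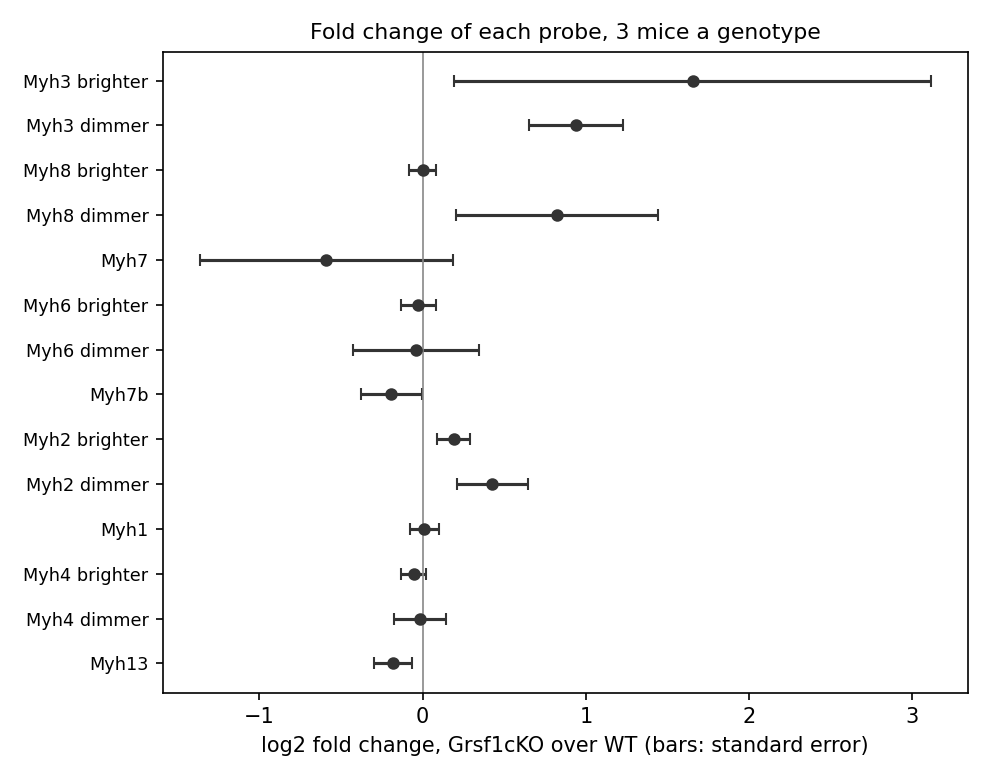
Log2 fold change of each myosin heavy chain probe (Grsf1cKO over WT, horizontal axis), as points with the standard error of the limma fit as bars, from 3 mice a genotype. The largest fold change, 1.65 for the brighter Myh3 probe, has a standard error of 1.46.

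Among the developmental chains, Myh3 separated a single mouse from all others. The log2 signal of its brighter probe (A_55_P2066440) was 9.85, 10.06 and 15.30 in Grsf1cKO mice 1 to 3 and 10.01, 9.97 and 10.28 in WT mice 1 to 3. Grsf1cKO 3 was thus 32.6-fold above the next mouse, while the other 5 mice lay within the same narrow range and the genotypes overlapped. The intensity before normalization was 38128 in Grsf1cKO 3 and 908 to 1173 on the 7 other arrays. No other probe of the 38859 had a larger gap between Grsf1cKO 3 and the next mouse. The log2 fold change between the genotypes was 1.65 (SE 1.46, limma adjusted p = 0.996, exact permutation p = 0.8), higher in 1 of 3 Grsf1cKO mice, and was -0.13 (SE 0.145) without Grsf1cKO 3. With slide as a term it was 1.44, and on the slide that held both genotypes 1.58. Grsf1cKO 3 was measured on a single array, so its value has no technical repeat. In RNA of whole muscle, a change in the number of cells of a type and a change in RNA per cell cannot be told apart.

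The promoter of Myh3 is shown because the brighter probe of this gene sets Grsf1cKO 3 apart. The 250 bases before its transcription start, from RefSeq (GRCm38.p6, chr11:67078050-67078299, plus strand), hold 1 E-box, the letters CANNTG that read alike on both strands and that myogenic factors such as MyoD and myogenin are known to bind, in capitals.
Myh3: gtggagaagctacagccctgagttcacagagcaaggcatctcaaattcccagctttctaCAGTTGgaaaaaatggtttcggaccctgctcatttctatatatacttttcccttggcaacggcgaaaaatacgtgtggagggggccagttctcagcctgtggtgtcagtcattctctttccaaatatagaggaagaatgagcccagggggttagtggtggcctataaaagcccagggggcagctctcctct
At least 1 such match is found in 66.1% of the 27025 promoters of this length (1 for each gene), so that a match is the usual case.

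The dimmer Myh3 probe (A_55_P2744649) was the only member with an unadjusted p under 0.05 when repeat arrays were averaged in. Its log2 signal was 5.41, 5.09 and 5.90 in Grsf1cKO mice 1 to 3 and 5.02, 4.26 and 4.29 in WT mice 1 to 3. All Grsf1cKO mice were above all WT mice, with a log2 fold change of 0.94 (limma adjusted p = 0.996, exact permutation p = 0.1). The genotypes overlapped with normexp background correction, where the fold change was 0.30, and with the deposited scores (0.92). This probe was well above background on 5 of 8 arrays, and among WT mice on the arrays of WT 1 only. The arrays of Grsf1cKO 1 differed, with a log2 signal of 3.78 on the first and 7.03 on the repeat array. Grsf1cKO 3 was the highest mouse here as well, but by 0.50 only, and below that repeat array, so the Myh3 probes differ in how far this mouse stands out. With first arrays only, the fold change was 0.43 (SE 0.587) and the genotypes overlapped. Without Grsf1cKO 3 the probe falls below the filter on dim probes and was not tested.

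Myh8, the neonatal chain, gave results that differed between its probes. At the dimmer probe (A_55_P2744654) the log2 signal was 5.49, 4.35 and 6.92 in Grsf1cKO mice 1 to 3 and 4.86, 4.53 and 4.90 in WT mice 1 to 3. Grsf1cKO 3 was again the highest, 2.70-fold above the next mouse, and the genotypes overlapped (log2 fold change 0.83, SE 0.620, limma adjusted p = 0.996). That next mouse, Grsf1cKO 1, was at 4.37 on its first and at 6.61 on its repeat array. With first arrays only the fold change was 0.55, and leaving out each mouse gave 0.16 (without Grsf1cKO 3) to 1.44 (without Grsf1cKO 2, with no overlap). The brighter probe (A_51_P143296) lay between 18.71 and 18.80 in all 6 mice (log2 fold change -0.00014, SE 0.0805, and -0.13 with scaling to the 75th percentile). Grsf1cKO 3 and WT 3 shared the highest value after quantile normalization, with 447407 and 477461 before it. This probe was brighter than those of the adult fast chains, with 0.0412% of all probes above it, against 0.113% for the brighter Myh4 probe. The sequences of the probes were not used here, so whether a probe also binds transcripts of related chains was not tested. The signal of the brighter probe is therefore not shown to come from Myh8 alone.

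Other genes of developing and regenerating muscle set the same mouse apart. Of the 11 genes on this list, 9 were highest in Grsf1cKO 3, and 8 of these by over 1 on the log2 scale, against 16.3% and 0.636% of all probes. Chrng, the fetal subunit of the acetylcholine receptor, was at 11.36 in Grsf1cKO 3 and at 7.15 or below in the other 5 mice. Mymk, which encodes the membrane protein myomaker of myoblast fusion, was at 11.31 against 7.41 or below. Mymx, encoding its partner myomixer, was at 11.38 in Grsf1cKO 3, with 8.61 in the next mouse. Myog, the transcription factor myogenin of differentiating myoblasts, was at 11.31 against 9.33 or below. Myl4, the embryonic and atrial light chain that pairs with these heavy chains, was at 16.06 against 13.47 or below, and Tnnt2, the cardiac and embryonic troponin T, was at 13.33 against 10.98 or below. Myod1 and Cdh15, which are also expressed in satellite cells and myoblasts, were not highest in this mouse, with 10.87 and 12.69. Myod1 was lowest in Grsf1cKO 3, with 10.95 in Grsf1cKO 2 as the next value.

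Between the genotypes, 0 of these 11 genes passed the criteria in limma and 0 had an unadjusted p under 0.05, against 1.29% of all probes higher and 2.96% lower in Grsf1cKO. With first arrays only 1 gene, Actc1, was under 0.05, and leaving out each mouse gave 0 to 3. The fold changes ran from -0.25 for Myod1 and 0.11 for Cdh15 to 1.93 for Chrng and 2.20 for Mymx on the log2 scale. Their median was 1.03, against -0.026 over all probes, and 0.062 without Grsf1cKO 3. Without that mouse, Mymx had a log2 fold change of 1.09 and Ankrd1, a stress-responsive repeat protein of muscle, 0.49, and these 2 genes then had an unadjusted p under 0.05, as did 1.67% of all probes in the same direction in that fit. The summed signal of the list was 160948 in Grsf1cKO 3 and 30808 to 42671 in the other mice. Actc1, the cardiac and fetal actin, was its brightest gene in Grsf1cKO 1, Grsf1cKO 2, WT 1 and WT 2. In Grsf1cKO 3 Myl4 was brighter, at 16.06 against 15.46 for Actc1, as it was in WT 3, at 13.47 against 13.11.

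Macrophage markers were also highest in this mouse, which was measured on a single array. All 5 were highest in Grsf1cKO 3, against 16.3% of all probes, Cd68 by 1.34 on the log2 scale and Mrc1 by 0.12. Of the 5, 1 was highest by over 1, against 0.636% of all probes. Their summed signal was 40898 in Grsf1cKO 3 and 21157 to 25464 in the other mice. Csf1r was the brightest of the 5, and all 5 were well above background on every array. Of the 4 satellite cell markers with signal over background, only Vcam1 was highest in Grsf1cKO 3, and the summed signal of all 5 was 8497 in this mouse and 6744 to 8401 in the others. Cdh15 was the brightest of these, and Myf5 was well above background on 0 arrays. Of 5 fibroblast markers, 3 were highest in this mouse, 0 of them by over 1. Their summed signal was 392279 against 321013 to 368735, and Dcn was the brightest. The part of these cells in the Myh3 signal was not tested.

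**Figure D3:**
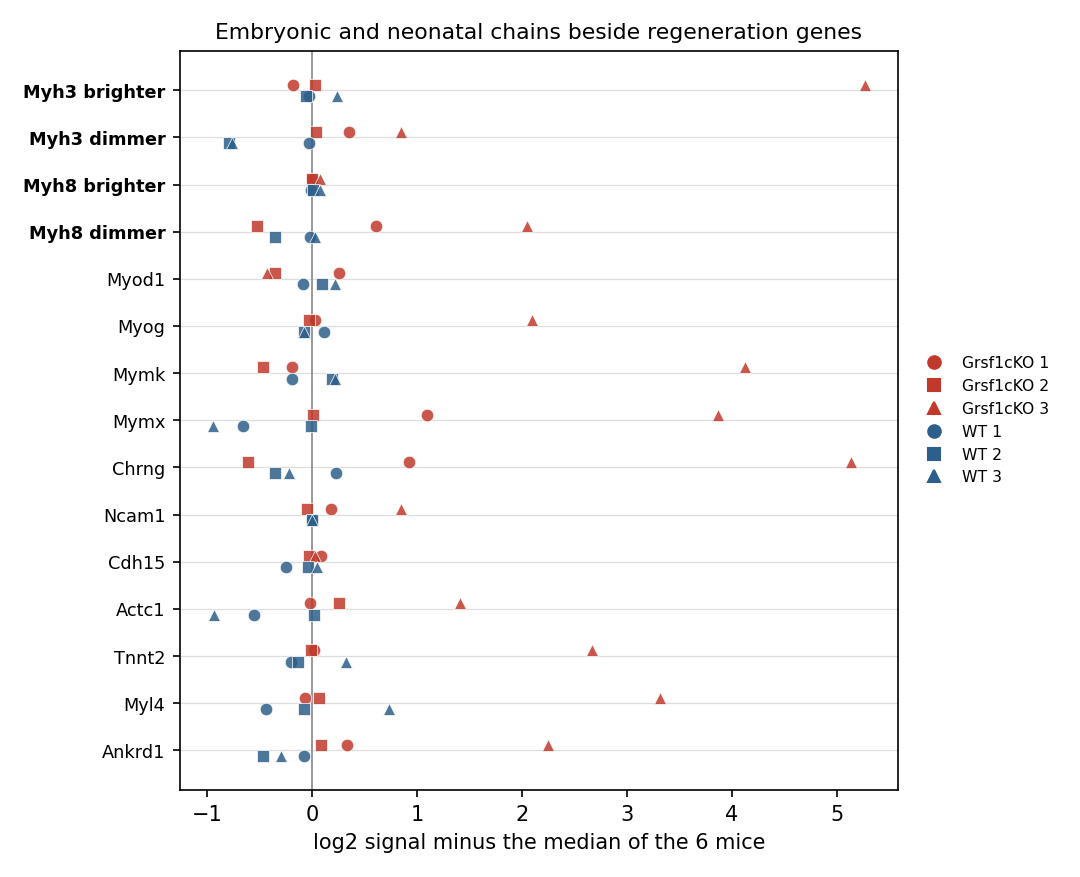
Log2 signal of the Myh3 and Myh8 probes (bold) and the 11 regeneration and embryonic muscle genes in each mouse (horizontal axis, difference from the median of the 6 mice). Grsf1cKO 3 is the highest mouse for 9 of the 11 genes and, by 5.03, for the brighter Myh3 probe.

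Among the slow chains, Myh7 separated the mice without regard to genotype. The log2 signal of its probe (A_55_P2093232) was 11.35, 9.46 and 9.39 in Grsf1cKO mice 1 to 3 and 9.27, 11.38 and 11.33 in WT mice 1 to 3. Grsf1cKO 1, WT 2 and WT 3 were high, Grsf1cKO 2, Grsf1cKO 3 and WT 1 were low, and no mouse lay in the gap of 1.86 between them, which is 3.64-fold. The repeat arrays gave the level of the first ones, with 11.41 and 11.29 for Grsf1cKO 1 and 9.27 on both arrays of WT 1, which were on different slides. On slide 1, WT 1 was low and WT 2 high, and both levels were found on slide 2 as well. The log2 fold change between the genotypes was -0.59 (SE 0.774, limma adjusted p = 0.996, exact permutation p = 0.9), and it was -0.36 with slide as a term and -0.23 on the slide that held both genotypes. Leaving out each mouse gave -1.28 (without WT 1) to -0.23 (without WT 2), with -0.25 without Grsf1cKO 3. The SD within a genotype was 1.16, against a median of 0.138 for probes of like brightness, and 318 of 38859 probes (0.818%) varied as much over the mice. The same 3 mice were highest at 1178 probes (3.03%), with a gap over 1 at 11 of these, and with a gap at least that of Myh7 at 2, counting Myh7.

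Myh7b, a slow-type chain of heart and muscle, had the same mice at the top. Its log2 signal was 9.55, 9.19 and 9.06 in Grsf1cKO mice 1 to 3 and 9.15, 9.57 and 9.65 in WT mice 1 to 3. The gap between the third and the fourth mouse was 0.36, and the fold change between the genotypes was -0.19 on the log2 scale (SE 0.189, limma adjusted p = 0.996). Leaving out each mouse gave -0.34 (without WT 1, with no overlap) to -0.088 (without Grsf1cKO 3). Myh6, the chain of the atria and of the adult mouse ventricle, also had these mice at the top at its brighter probe, with 10.85, 10.74 and 10.71 in Grsf1cKO 1, WT 2 and WT 3 and 10.66 or below in the others (log2 fold change -0.026, SE 0.108). The arrays of Grsf1cKO 1 differed by 0.082 at this probe, which is more than lay between WT 3 and the next mouse. Before normalization WT 2 and WT 3 were at 1539 and 1567, below Grsf1cKO 2 at 1592. The dimmer Myh6 probe was well above background on 6 of 8 arrays and ranged from 4.33 to 5.79, the highest being Grsf1cKO 1 with 4.43 on the first and 7.16 on the repeat array. The log2 fold change of this probe was -0.041. With first arrays only it was -0.46 (SE 0.156, limma adjusted p = 0.992), and this was then the only member with an unadjusted p under 0.05, with overlapping genotypes.

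Each of these slow chain genes holds a microRNA within its bounds, a family known to act on the slow and fast programs of muscle. The array did not measure them, and their mature sequences from RefSeq (GRCm38.p6) are shown because their host genes had the same mice at the top, Myh6 at its brighter probe. They lie at chr14:54949072-54949093 (minus strand) in Myh6, chr14:54975710-54975731 (minus strand) in Myh7 and chr2:155622893-155622913 (plus strand) in Myh7b, with the seed, bases 2 to 8, in capitals.
miR-208a-3p: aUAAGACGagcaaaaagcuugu
miR-208b-3p: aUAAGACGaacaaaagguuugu
miR-499-5p: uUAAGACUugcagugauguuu
The seeds of miR-208a-3p and miR-208b-3p are identical, and that of miR-499-5p differs from them at its last base.

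The 12 other slow fiber genes were all highest in Grsf1cKO 3, a mouse with a low Myh7, against 16.3% of all probes, 4 of them by over 1 on the log2 scale. Tnni1, the slow troponin I that fetal muscle also uses, was at 14.33 in Grsf1cKO 3 and at 11.21 or below in the others, and Tnnt1, the slow troponin T, was at 14.38 against 13.02 or below. Atp2a2, the calcium pump of slow fibers, was at 12.44 against 11.58 or below, whereas Myl3 and Pln exceeded the next mouse by 0.036 and 0.024 only. Among the other 5 mice, 3 of the 12 genes, Tnnt1, Tnni1 and Tnnc1, were highest in the mice with a high Myh7, against 5.07% of all probes. Tnni1 was at 11.19, 11.17 and 11.21 in Grsf1cKO 1, WT 2 and WT 3 and at 10.61 and 10.35 in Grsf1cKO 2 and WT 1. The summed signal of the list was 366770 in Grsf1cKO 3 and 260137 to 290302 in the other mice, with Myl3 the brightest gene. Of the 12 genes, 0 passed the criteria in limma, and 2 had an unadjusted p under 0.05, both higher in Grsf1cKO, against 1.29% of all probes.

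These were Csrp3, the muscle LIM protein, with a log2 fold change of 1.24 (SE 0.415, limma adjusted p = 0.996), and Myl2, the slow regulatory light chain, with 0.63 (SE 0.257, limma adjusted p = 0.996). Both were higher in all 3 Grsf1cKO mice than in any WT mouse. Without Grsf1cKO 3 the fold changes were 1.06 and 0.34, and only Myl2 remained under 0.05. Tnni1 had a fold change of 1.13, and Myl3 and Pln had the lowest, 0.024 and 0.042. The median over the 12 genes was 0.52, and 0.020 without Grsf1cKO 3.

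**Figure D4:**
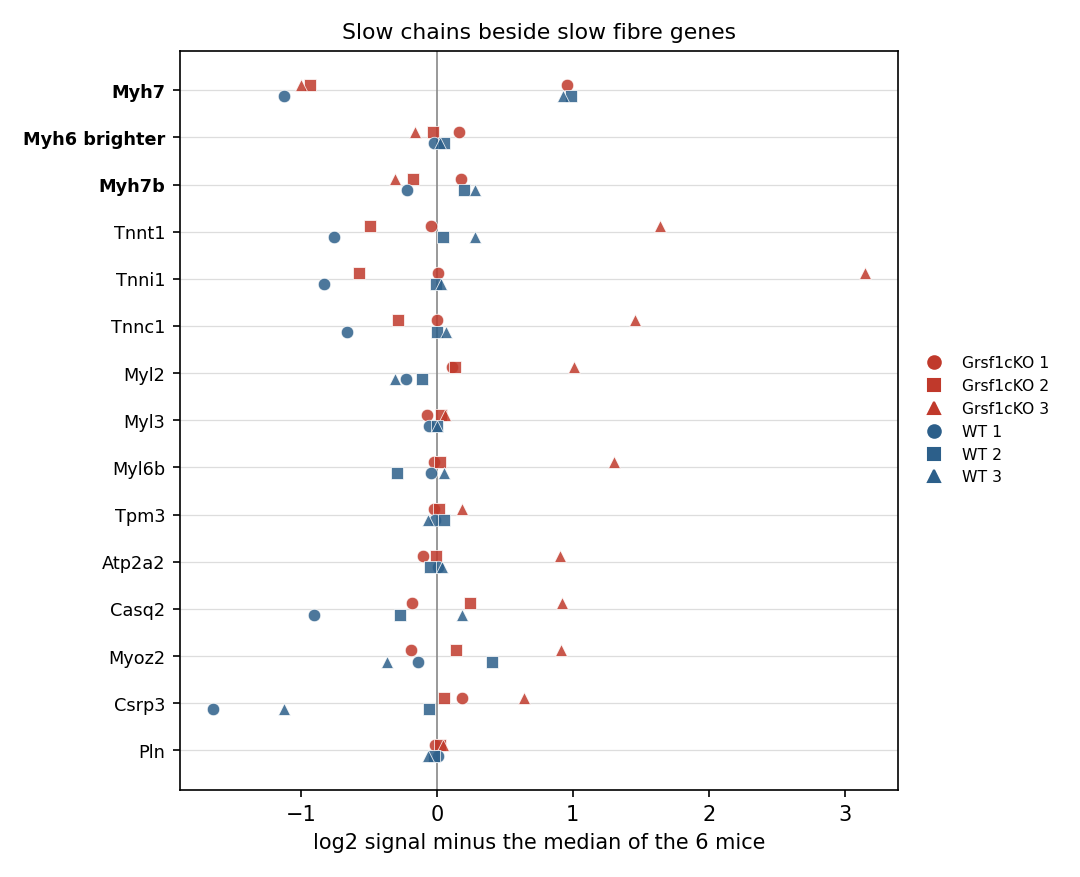
Log2 signal of Myh7, Myh7b and the brighter Myh6 probe (bold) and the 12 slow fiber genes in each mouse (horizontal axis, difference from the median of the 6 mice). Myh7 lies at separate levels with members of both genotypes at each, while Grsf1cKO 3 is the highest mouse for all 12 slow fiber genes.

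The brightest probes of the fast chains varied little across the mice after quantile normalization, and their dimmer probes varied more. Myh4, the fastest and the main chain of many mouse limb muscles, was at 18.48, 18.49 and 18.51 in Grsf1cKO mice 1 to 3 and at 18.58, 18.54 and 18.53 in WT mice 1 to 3 at its brighter probe (A_51_P338072). All Grsf1cKO mice were below all WT mice, by a margin of little size. The log2 fold change was -0.055 (SE 0.0756, limma adjusted p = 0.996, exact permutation p = 0.1), and -0.18 with scaling to the 75th percentile and 0.021 with the deposited scores, where the genotypes overlapped. They overlapped with normexp background correction as well. The arrays of WT 1 differed by 0.086 at this probe, against a range of 0.097 over the mice. Its dimmer probe (A_55_P2744675) ranged from 15.54 to 15.99, with overlapping genotypes and a fold change of -0.017. Myh1, the chain between Myh4 and Myh2 in speed, ranged from 18.23 to 18.39 (log2 fold change 0.0094, SE 0.0894, and -0.10 with scaling to the 75th percentile). At such brightness quantile normalization leaves little room between arrays, since it gives spots of equal rank equal values.

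Myh2, the slowest of the fast chains and that of oxidative fast fibers, was above 0 in fold change at each of its probes. The log2 signal of the brighter probe (A_51_P225134) was 17.90, 17.97 and 18.13 in Grsf1cKO mice 1 to 3 and 17.90, 17.82 and 17.72 in WT mice 1 to 3. The genotypes did not overlap, although Grsf1cKO 1 and WT 1 had nearly the same value, and the log2 fold change was 0.19 (SE 0.101, limma adjusted p = 0.996, exact permutation p = 0.1). It was 0.21 with slide as a term, 0.20 on the slide that held both genotypes and 0.13 without Grsf1cKO 3. With scaling to the 75th percentile it was 0.077 and the genotypes overlapped, as they did with first arrays only. The dimmer probe (A_55_P2744634) was at 10.27, 10.83 and 11.03 in Grsf1cKO mice 1 to 3 and at 10.24, 10.48 and 10.13 in WT mice 1 to 3, with overlapping genotypes and a log2 fold change of 0.43 (SE 0.219, limma adjusted p = 0.996). It was 0.27 without Grsf1cKO 3. The genotypes did not overlap on the slide that held both (0.54), without Grsf1cKO 1 (0.65) or without WT 2 (0.53). Myh13, the chain of extraocular and laryngeal muscle, was well above background on all 8 arrays, between 12.53 and 12.97, with a log2 fold change of -0.18 (SE 0.117), and -0.083 without Grsf1cKO 3.

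Of the 13 other fast fiber genes, 0 passed the criteria in limma and 0 had an unadjusted p under 0.05. Their median log2 fold change was 0.0023, from -0.032 for Tnnc2 and -0.029 for Tpm1 to 0.045 for Actn3 and 0.084 for Mylk2. The normalization itself holds the brightest of them level, such as Tnnt3, the fast troponin T, at 19.13 in 5 of 6 mice.

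The genes of the fast and neonatal chains lie close together on chromosome 11, in the order Myh3, Myh2, Myh1, Myh4, Myh8 and Myh13, and Myh6 and Myh7 lie close together on chromosome 14. Before the starts of Myh2, Myh1, Myh4 and Myh8, within 250 bases, a run of 14 bases is identical, and it is shown because the rule that chose the genes did not use it. RefSeq (GRCm38.p6, plus strand) places the stretches at chr11:67170872-67170945, chr11:67199912-67199985, chr11:67237624-67237697 and chr11:67277040-67277113, with the shared run in capitals.
Myh2: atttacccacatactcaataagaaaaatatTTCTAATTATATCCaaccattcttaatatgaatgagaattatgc
Myh1: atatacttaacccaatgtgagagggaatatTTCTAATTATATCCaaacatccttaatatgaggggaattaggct
Myh4: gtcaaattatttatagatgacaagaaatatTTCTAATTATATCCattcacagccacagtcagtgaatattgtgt
Myh8: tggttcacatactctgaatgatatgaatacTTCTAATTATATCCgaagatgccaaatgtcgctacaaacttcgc
The run begins 125, 160, 158 and 54 bases before the start of Myh2, Myh1, Myh4 and Myh8. On either strand it was found in these 4 of 27025 promoters (0.0148%). Myh2, Myh1 and Myh4 share a longer run of 20 bases around it, which no other promoter of the table holds.

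Genes that work with the myosin heavy chains differed little between the genotypes in most cases. Of 15 thick filament partners and myosin chaperones, 0 passed the criteria in limma and 1 was higher with an unadjusted p under 0.05, against 1.29% of all probes, and 0 without Grsf1cKO 3. This was Myom3, the M-band protein myomesin 3, with 0.61 on the log2 scale (SE 0.230, limma adjusted p = 0.996), and 0.39 without Grsf1cKO 3. Its log2 signal was 13.33, 13.78 and 14.21 in Grsf1cKO mice 1 to 3 and 13.19, 13.29 and 13.02 in WT mice 1 to 3, with no overlap. Unc45b and Smyd1, whose proteins take part in the folding and assembly of myosin, had log2 fold changes of -0.016 and 0.0099. Mybph, a myosin-binding protein, had 0.50, and the M-band genes Myom2 and Myom1 had -0.12 and -0.10. The median of this list was -0.0068.

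Of 19 fibre type regulators, 0 passed the criteria in limma. Tead1 and Ppargc1a, a partner of the Vgll proteins and a coactivator of the oxidative program, had log2 fold changes of -0.28 and -0.26, and Rcan1 and Esrrg 0.099 and 0.049. The median of the 19 was -0.099. The non-muscle and smooth muscle myosin heavy chains Myh9, Myh10, Myh11 and Myh14 had a median of 0.074, and 0 of these 4 passed the criteria in limma or had an unadjusted p under 0.05. Their median was -0.015 to 0.11 when each mouse was left out, with 0.021 without Grsf1cKO 3.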

How the data were processed

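The authors deposited the Feature Extraction 12.0.3.1 output of each array, with linear spot intensities, and z-scores in a separate table. The deposited score of a spot equals, within 0.005, the log2 processed signal standardized over its array. Control spots were left out, and non-uniform or population outlier spots set to missing. The processed signals of the 8 arrays were quantile normalized and log2 transformed, then averaged per probe and per mouse. No non-control spot was saturated. The limma fit (limma 3.58.1, R 4.3.3) had genotype as its single term and took probes that 3 or more mice showed well above background, and p-values were adjusted over all 38888 probes (Benjamini-Hochberg). Of 56605 probes, 32994 were given a symbol through RefSeq (GRCm38.p6), which served only for names, neighbors and sequences. Lists use the brightest probe of a gene. Named are all members, Grsf1, annotated neighbors and, of each list, most of those with an unadjusted p under 0.05, high and low fold changes and others as examples, and the 3 genes most like Myh7 and Myh4. Examples chosen by their level in Grsf1cKO 3 or in the mice with a high Myh7 were picked after the values were seen. Members and lists were chosen with earlier results of these data known. The fit was tested on simulated data. The number of mice, 3 a genotype, limits the precision.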

Additional observations from a re-analysis of the deposited data

How the results depend on the processing

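Over the counts, fold changes, and Myh3 and Myh7 spreads, 316 recomputed values kept their direction and side of the threshold or stayed within the allowed range, 30 moved, 25 changed sign and 1 passed the criteria. A z-test, with a formula written here and without the methods' criteria on z-ratio, variance and mean score, called 98 probes higher and 281 lower, and 1 member, the dimmer Myh3 probe (log2 fold change 0.94), and it gave 3 members under 0.05. Probes higher in Grsf1cKO numbered 2 with normexp and with an intensity trend, and 1 to 2 when each mouse was left out. Probes lower numbered 1 on slide 2, and 1 to 2 without each mouse. With the replicate number as a block 1 probe was higher and 0 were lower. Same-numbered mice correlated at 0.232, 0.097 and 0.104 in their deviations, so the numbers are not shown to pair the mice. Members under 0.05 numbered 0 with normexp, the all-mice filter (which drops the dimmer Myh3 probe), slide as a term and slide 2, 2 with the trend, and 0 to 2 without each mouse. The filter leaves 13 of the 14 probes without Grsf1cKO 2, Grsf1cKO 3 or WT 1, the dimmer Myh3 probe being dropped. Members without overlap numbered 1 with 75th percentile scaling, the deposited scores and first arrays, 0 with normexp, 5 on slide 2, and 3 to 6 without each mouse. With fewer mice more of all probes do not overlap, 7778 of 38197 on slide 2 and 6728 to 7832 without each mouse, against 3632 of 38859. Several fold changes crossed 0. Myh8 (brighter probe) was 0.057 with the scores and 0.013 with first arrays, and -0.027 to 0.027 without each mouse. Myh1 was -0.10 with 75th percentile scaling and -0.013 with first arrays, and -0.044 to 0.039 without each mouse. The brighter Myh4 probe was 0.021 with the scores. The dimmer one was 0.071 with the scores, 0.032 with slide as a term and 0.10 on slide 2, and -0.13 to 0.094 without each mouse. The dimmer Myh6 probe was 0.021 with 75th percentile scaling, 0.020 with normexp, 0.34 with repeat arrays in place of first ones and -0.46 with first arrays only, and -0.46 to 0.27 without each mouse, and the brighter one -0.11 to 0.050. Myh7 was -1.28 to -0.23 without each mouse. The brighter Myh3 probe ranged from -0.13, without Grsf1cKO 3, to 2.60. Its gap between Grsf1cKO 3 and the next mouse was 4.84 with the scores and 5.03 to 5.24 without each other mouse. Apart from the filter, the causes were not tested. Signal over background limits the dimmer probes of Myh3, Myh6 and Myh8, which were not well above it on every array.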

Other observations

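Of the 8 neighbors of the myosin heavy chain genes that the array covers, 0 had an unadjusted p under 0.05. The long noncoding RNA gene 2310065F04Rik, which lies between Myh3 and Myh2, was at 15.95, 15.53 and 15.18 in Grsf1cKO mice 1 to 3 and at 15.74, 15.75 and 15.54 in WT mice 1 to 3. It was lowest in Grsf1cKO 3, where Myh3 was highest, and its log2 fold change was -0.12 (SE 0.203, limma adjusted p = 0.997), and 0.062 without Grsf1cKO 3. Sco1, on the other side of Myh3, was at 9.61 in Grsf1cKO 3 and between 9.41 and 9.64 in the other mice. Mhrt, a noncoding RNA gene next to Myh7, was well above background on 5 of 8 arrays, with a log2 fold change of 0.24 (SE 0.451) that was -0.24 with first arrays only. It was not tested without Grsf1cKO 3. Cmtm5 and Ngdn around Myh6 and Myh7 and Gss and Trpc4ap around Myh7b had log2 fold changes of -0.050, -0.021, 0.072 and -0.018, and Gas7 beyond Myh13 had -0.23 (SE 0.123, limma adjusted p = 0.996).

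The genes outside the lists with the highest Pearson r to Myh7 over the 6 mice were Ago2, a protein of small RNA silencing, Tdp1, a DNA repair enzyme, and Mtdh. Ago2 was at 12.75, 12.62 and 12.61 in Grsf1cKO mice 1 to 3 and at 12.62, 12.77 and 12.78 in WT mice 1 to 3, a range of 0.17 against 2.11 for Myh7. Tdp1 ranged over 0.26 and Mtdh over 0.11. Since the mice lie at separate levels of Myh7, no r is given. For the brighter Myh4 probe these genes were Glud1, Daam1 and St8sia6. Here no r is given either, since the arrays of WT 1 differ by 0.086 and the mice range over 0.097.

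Markers of other cells in the muscle gave few values under an unadjusted p of 0.05. Of 5 endothelial, 5 adipocyte, 5 smooth muscle, 5 fibroblast, 5 macrophage and 5 Schwann cell and nerve markers, limma put 0 past the criteria and 0 at this level, with medians of -0.058, -0.11, -0.018, 0.22, 0.19 and 0.046 on the log2 scale. Without Grsf1cKO 3 these medians were, in the same order, -0.051, -0.045, 0.11, 0.056, -0.071 and 0.12. The 10 skeletal muscle identity genes had 0 and a median of 0.020. Of the 4 satellite cell markers tested, Vcam1 was above WT with an unadjusted p under 0.05 (log2 fold change 0.36, SE 0.135, limma adjusted p = 0.996), against 1.29% of all probes, and without Grsf1cKO 3 no marker of this list was (Vcam1 0.25). Of the 4 cardiac markers tested, Nppb was below WT at this level (-0.49, SE 0.149, limma adjusted p = 0.996), against 2.96% of all probes. Nppb was well above background on 6 of 8 arrays, and its fold change was -0.61 without Grsf1cKO 3. With first arrays only it was -0.30, and no cardiac marker was under 0.05.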
